A study of Mus musculus with 8 samples.

Results

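Cytochrome c oxidase, complex IV of the respiratory chain, is described here through the nuclear genes of its subunits and of the proteins that build it, in brown adipose tissue of mice that lost Lsd1 in brown fat cells. The members are the genes whose symbol begins with Cox4 to Cox8, Cox10 to Cox19 or Cox20, together with Surf1, Sco1, Sco2 and Cycs. They came to 31 of the 23372 genes in the count table. Brown adipose tissue was taken from 10-week-old mice on a C57BL/6 N background, and its total RNA was sequenced. The 4 knockout libraries (KO, replicates 512, 513, 515 and 516) came from mice with Lsd1 floxed and Cre recombinase driven by the Ucp1 promoter. This is a promoter of brown fat cells. Lsd1 removes methyl groups from histones and is listed as Kdm1a. The 4 control libraries (Control, replicates 511, 514, 517 and 518) came from animals described as floxed for Lsd1 only. The Cre transgene therefore goes with the knockout, and Lsd1 remains in cells that do not use this promoter. Whether the libraries came from separate animals is given only through their numbers, so p-values measure the spread between these libraries.

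Cytochrome c oxidase takes electrons from cytochrome c, passes them to oxygen and pumps protons across the inner mitochondrial membrane. Its catalytic core, with the subunits COX1 and COX2, is encoded by mitochondrial DNA, and nuclear subunits surround it. Several nuclear subunits exist as a ubiquitous form and a form of heart and skeletal muscle, lung or testis, and brown fat shares some of the muscle forms. The core is filled with heme a and copper by dedicated assembly proteins. Brown fat is rich in mitochondria, and heat is made there when uncoupling protein 1 lets the protons flow back. The mitochondrially encoded core subunits were not analysed here.

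The libraries held 23683798 to 28570446 counts over genes. Levels are counts per 1000000 (CPM), scaled by TMM factors (trimmed mean of M values), and the SD is that of the 4 libraries in a group. Log2 fold changes are KO over Control, and their standard errors (SE) are approximate. A gene is called when its adjusted p is under 0.05 in edgeR's quasi-likelihood test over 14178 genes. Kdm1a was at 13.1 ± 0.711 CPM in KO and 35.4 ± 1.52 CPM in Control (SD, n = 4 each), a log2 fold change of -1.43 with an SE of 0.0743 (edgeR adjusted p = 2.66e-05). Ucp1, uncoupling protein 1, averaged 1377 ± 161 CPM in KO and 4481 ± 1200.2 CPM in Control and fell by 1.70 (edgeR adjusted p = 0.000477). With Ucp1 included, 10 brown adipocyte markers summed to 5415 to 6028 CPM in KO and 8800.0 to 11902 CPM in Control. Ucp1 had the largest difference in mean CPM of the 10, and sums without it were not made. Of the 10, 6 were called lower and 0 higher. Cidea, Dio2, Ppargc1a and Ebf2 were not called, at log2 fold changes of -0.26, 0.17, -0.03 and -0.04. The summed level of 18 skeletal muscle markers, genes of a tissue that lies beside the fat pad, was 9436 to 20803 CPM in KO and 382 to 8453 CPM in Control. All 18 muscle markers had a positive log2 fold change, and 1, Myh2, was called, while 0 of them were at 0 in any library. Macrophage markers summed to 131 to 190.1 CPM in KO and 73.1 to 141 CPM in Control, with 2 of 5 called higher. Schwann cell markers summed to 254 to 279 CPM in KO and 201 to 215 CPM in Control, with 1 of 5 called higher. In bulk tissue, fewer cells of a type and less RNA per cell cannot be told apart.

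Most cytochrome c oxidase genes fell in the KO, and by similar small amounts. Of the 31 members 29 passed the filter on low counts, and of these 22 were called lower, 1 was called higher and 6 were not called. Among all tested genes 18.9% were called lower and 15.4% higher. The members' median log2 fold change was -0.38, beside -0.01 over all tested genes. KO and Control values did not overlap for 24 of the 29 tested members, beside 35.5% of all tested genes. The 2 members below the filter were Cox7b2 and Cox8c, subunit forms known from testis. Cox8c had a count of 0 in all 8 libraries, which allows up to 3 counts or 0.112 to 0.132 CPM per library, and Cox7b2 had 1.5 counts in KO 512 and 0 in the others. The part of the brown adipocyte marker differences in these falls was not tested. That of the muscle markers was not tested beyond the covariate fit that follows. TMM factors were 1.05 to 1.10 in KO and 0.898 to 0.961 in Control. Scaling by library sizes alone, which moved the median of all genes by 0.199 on the log2 scale, gave 12 members lower and 3 higher, with a median of -0.19 over the members and 0.19 over all genes. Of the 14178 tested genes, 930 were called lower and 4077 higher with this scaling. With the skeletal muscle score as a covariate, 14 members were lower and 1 was higher, while the members' median log2 fold change was -0.37. In that fit 1822 of 14178 tested genes were called lower and 1429 higher. The muscle score, the mean log2 CPM of the muscle markers, was 8.40 to 9.56 in KO and 3.79 to 8.22 in Control. The groups did not overlap in it, so the fit cannot fully separate muscle from genotype.

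**Figure D1:**
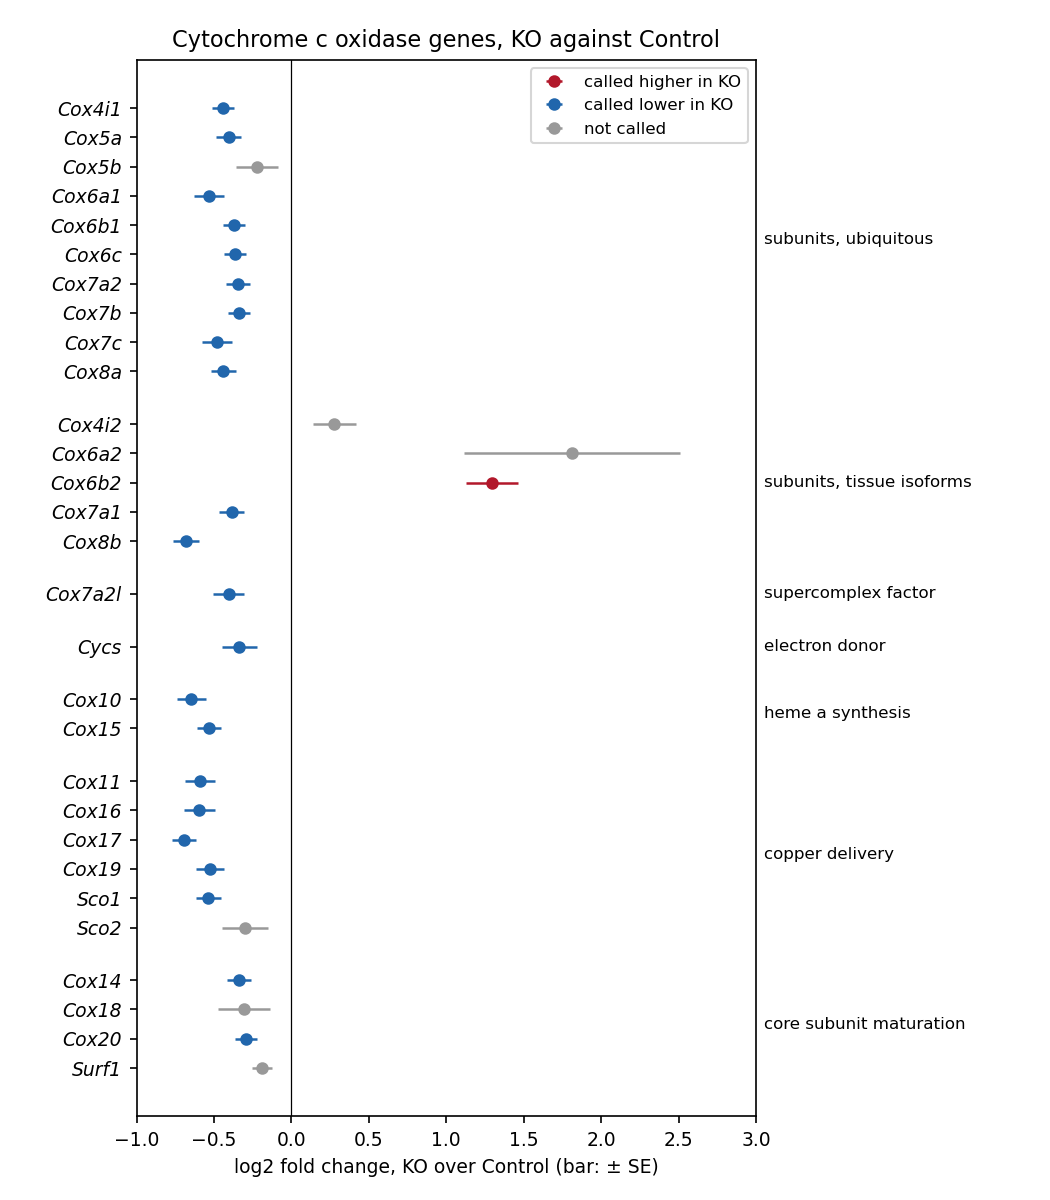
Log2 fold change (KO over Control, x axis, with SE as bars) of the 29 tested cytochrome c oxidase genes, ordered by role. The values of 22 genes called lower lie between -0.69 and -0.29, Cox6b2 is called higher at 1.30, and Cox6a2 has the widest error bar.

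The ubiquitous nuclear subunits, present in the enzyme of most tissues, moved together. Of 10 tested, 9 were called lower and 0 higher, with a median log2 fold change of -0.39 and a range of -0.53 to -0.22. Their log2 fold changes had an SD of 0.0871 between the 10 genes, beside 0.613 over all tested genes. The SEs of the 10 ran from 0.0705 to 0.135, beside a median of 0.131 over all tested genes. Levels were not matched, and the part of measurement noise in the wider spread was not tested. Cox4i1, a subunit that binds adenine nucleotides and is taken into the enzyme early (chromosome 8, 120668290 to 120674209, plus strand, mm10), had 1431, 1315, 1389 and 1479 CPM in KO libraries, against 1838, 2046, 1866 and 1872 CPM in Control libraries. Every KO library was below every Control library, and Cox4i1 fell by 0.44 in log2 units, with an SE of 0.0731 and an edgeR adjusted p of 0.00235.

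Cox6a1, the liver-type form of subunit VIa, fell most in this group. It had 1359.9, 1247, 1167 and 1245 CPM in KO libraries and 1883, 2069.8, 1634 and 1665 CPM in Control libraries, and fell by 0.53 in log2 units, with an SE of 0.0961 and an edgeR adjusted p of 0.00352. The groups did not overlap. Cox6b1, a subunit on the intermembrane side of the enzyme, had 944, 939.6, 982 and 1037 CPM in KO, against 1230.5, 1338, 1302 and 1174 CPM in Control (log2 fold change -0.37, edgeR adjusted p = 0.00524). Cox8a, the ubiquitous form of the smallest subunit, had 807, 699, 668 and 740.3 CPM in KO, against 1001, 1050.1, 929 and 977 CPM in Control (log2 fold change -0.44, edgeR adjusted p = 0.00368). Both were lower in every KO library than in any Control library.

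The remaining ubiquitous subunits were Cox5a, Cox5b, Cox6c, Cox7a2, Cox7b and Cox7c, small proteins around the core. Cox5a averaged 791 ± 29.8 CPM in KO and 1048 ± 99.8 CPM in Control (SD, n = 4 each), and fell by 0.41 on the log2 scale. In the GENCODE annotation 41.7% of its exon bases lie opposite Gm26631, and counting without strand cannot separate the pair. Cox6c averaged 580.0 ± 23.5 CPM in KO and 746 ± 47.7 CPM in Control and fell by 0.36. Cox7a2 had 419, 388, 379 and 434 CPM in KO, against 529.7, 551, 498 and 478 CPM in Control, and fell by 0.34. Cox7b averaged 573 ± 21.8 CPM in KO and 723 ± 44.4 CPM in Control and also fell by 0.34. These 4 genes had edgeR adjusted p of 0.00544 to 0.0087, and the groups of each did not overlap. With library sizes alone Cox5a, Cox6b1, Cox6c, Cox7a2 and Cox7b were not called (edgeR adjusted p = 0.0657, 0.0994, 0.117, 0.146 and 0.164), at log2 fold changes of -0.21 to -0.14. With the muscle covariate Cox5a, Cox6b1, Cox7a2 and Cox7b were not called (edgeR adjusted p = 0.0622, 0.0521, 0.0764 and 0.0686). Their log2 fold changes in that fit were -0.30, -0.29, -0.27 and -0.24, with SEs of 0.0823 to 0.100, beside 0.0705 to 0.0835 without the covariate.

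Cox5b and Cox7c stood apart by level. Per length, in CPM per kilobase, Cox7c was at 67.6 in KO and 94.4 in Control, and Cox5b at 93.9 in KO and 109 in Control. The other 8 ubiquitous subunits lay between 544 and 2385 CPM per kilobase in KO and between 690.3 and 3447 in Control, although each subunit enters the enzyme in equal number. Near-identical genes elsewhere in the annotation, with at least 95% identity over 200 bases, number 1 for Cox7c, Cox7a2l and Cox20, 2 for Cox7b and Cox6c, and 4 for Cycs. Counts of these 6 members may be split or lost and are uncertain. Cox5b has 0 such genes, but only annotated genes past these limits were searched. The reason for its low level was not tested, and its counts may be uncertain too. Cox7c was at 29.9 ± 3.24 CPM in KO and 41.7 ± 3.65 CPM in Control (SD, n = 4 each) and fell by 0.48 in log2 units (edgeR adjusted p = 0.0059), and with the muscle covariate it was at -0.39 and not called, the SE being 0.128 beside 0.0978 without it (edgeR adjusted p = 0.0581). Cox5b had 58.8, 61.0, 46.0 and 44.5 CPM in KO and 60.2, 56.1, 74.2 and 54.7 CPM in Control. Its groups overlapped, and its log2 fold change of -0.22 was not called (edgeR adjusted p = 0.23).

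**Figure D2:**
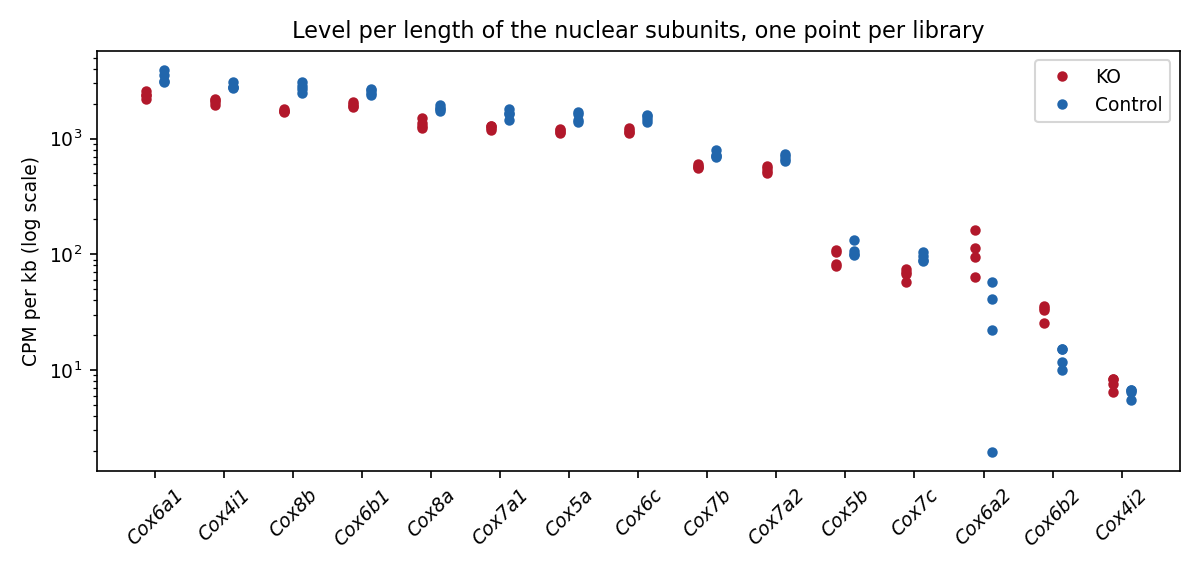
Level per length (CPM per kilobase, log scale) of the 15 tested nuclear subunits, 1 point per library, KO left of Control for each gene. Cox6a1, Cox4i1, Cox8b and Cox6b1 have the highest means per length in Control, while the group means of Cox5b and Cox7c lie between 67.6 and 109 and those of Cox6a2, Cox6b2 and Cox4i2 at 108 or less.

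The tissue-restricted subunit forms split in direction. Of 5 tested, 2 were called lower (Cox8b and Cox7a1), 1 was called higher (Cox6b2) and 2 were not called (Cox6a2 and Cox4i2). Cox8b, the heart and muscle form of subunit VIII that is abundant in brown fat (chromosome 7, 140898942 to 140900446, minus strand, mm10), had 645, 617, 616 and 613 CPM in KO libraries, against 884, 970.1, 1115 and 1024 CPM in Control libraries. The KO libraries lay close together and all below Control. Cox8b fell by 0.68 in log2 units, with an SE of 0.0822 and an edgeR adjusted p of 0.000592, a change in level of -37.6%. The value was -0.71 with the muscle covariate and -0.49 with library sizes alone, both still called (edgeR adjusted p = 0.00384 and 0.00427). Per length, Cox8b was at 1739 CPM per kilobase in KO and 2789 in Control, within the range of the main ubiquitous subunits.

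Cox7a1, the heart and muscle form of subunit VIIa and a known marker of brown fat cells, was also lower. It had 424, 445, 458 and 461 CPM in KO libraries, against 515, 580.4, 649 and 589 CPM in Control libraries, with no overlap. Its log2 fold change was -0.38 (SE 0.0816) and its edgeR adjusted p was 0.00718. It remained called with the muscle covariate (edgeR adjusted p = 0.042) and was not called with library sizes alone (0.138).

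Cox6b2, a form of subunit VIb known from testis (chromosome 7, 4751794 to 4753094, minus strand, mm10), was the 1 member called higher, and it was called in each of the 16 alternatives run. It had 13.8, 17.9, 18.7 and 19.5 CPM in KO libraries, against 5.46, 6.38, 8.28 and 8.29 CPM in Control libraries. The lowest KO library was above the highest Control library. The log2 fold change was 1.30 (SE 0.168) and its edgeR adjusted p was 0.000796, and the call held with the muscle covariate (edgeR adjusted p = 0.00699). Its level stayed far below that of Cox6b1, at 32.2 CPM per kilobase in KO and 13.1 in Control.

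Cox6a2, the heart and skeletal muscle form of subunit VIa (chromosome 7, 128205435 to 128206366, minus strand, mm10), had the highest log2 fold change of the members, 1.81, without a call (SE 0.696, edgeR adjusted p = 0.0713). It had 105, 74.0, 61.9 and 41.7 CPM in KO libraries, against 26.8, 1.28, 14.4 and 37.8 CPM in Control libraries. The groups did not overlap, but KO 516 and Control 518 lay close to each other and Control 514 was nearly without the transcript. The order of the libraries was that of the muscle markers. Per 1000 CPM of the summed muscle markers there were 5.03, 5.39, 5.07 and 4.42 CPM of Cox6a2 in KO libraries, against 4.73, 3.35, 3.04 and 4.48 in Control libraries. Once the muscle score was added to the model, its log2 fold change was 0.09, with an SE of 0.158 (edgeR adjusted p = 0.732). The gene was called without Control 514 (log2 fold change 1.42, edgeR adjusted p = 0.0208) and without Control 518 (2.34, adjusted p = 0.0436), by limma-voom (2.49, limma-voom adjusted p = 0.0397) and with library sizes alone (2.01, adjusted p = 0.0498). The authors' deposited table lists a fold of 3.48 with an FDR of 0.0128 for it.

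**Figure D3:**
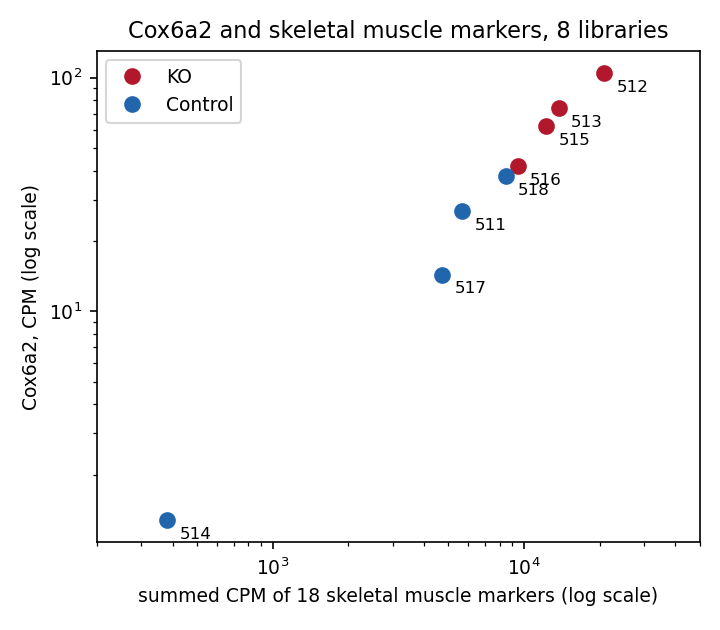
Cox6a2 (CPM, y axis, log scale) against the summed CPM of 18 skeletal muscle markers (x axis, log scale) in the 8 libraries, labelled by replicate. Control 514 is lowest on both axes at 1.28 and 382 CPM, and KO 512 is highest on both at 105 and 20803 CPM.

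Cox4i2, the lung form of subunit IV, which hypoxia induces and vascular mural cells express, was a rare transcript. It had 4.57, 5.42, 6.00 and 5.94 CPM in KO libraries and 4.83, 4.79, 4.58 and 3.92 CPM in Control libraries. The groups overlapped at KO 512, and the log2 fold change of 0.28 (SE 0.139) was not called, with an edgeR adjusted p of 0.152. With library sizes alone it was 0.48 and called (edgeR adjusted p = 0.0265). Smooth muscle and pericyte markers, 10 genes, summed to 1039 to 1368 CPM in KO and 859 to 1016 CPM in Control, with 1 called lower and 1 higher. Des, which skeletal muscle also expresses, made up the separation: the other 9 genes summed to 682 to 800.5 CPM in KO and 658 to 809.6 CPM in Control, a split made after the values were seen.

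The ratio of a tissue form to its ubiquitous partner within a library does not depend on scaling between libraries. Of 6 pairs 5 had at least 10 counts in every library, and their log2 ratios of counts were compared by a two-sided exact permutation test, which cannot give less than p = 0.0286 with 4 libraries against 4. Benjamini-Hochberg adjustment was made over the 5 pairs. The ratio of Cox6b2 to Cox6b1 was -6.10, -5.72, -5.71 and -5.73 in KO libraries, against -7.82, -7.71, -7.30 and -7.15 in Control libraries on the log2 scale. All KO libraries were higher, the difference was 1.68 (exact p = 0.0286, adjusted p = 0.0476), a 3.20-fold higher ratio in KO. The ratio of Cox4i2 to Cox4i1 was also higher in every KO library, at -8.01 ± 0.192 in KO and -8.72 ± 0.139 in Control (log2, SD, n = 4 each, exact p = 0.0286, adjusted p = 0.0476). In that pair Cox4i1 was called lower and Cox4i2 was not called. The ratio of Cox6a2 to Cox6a1 was -4.23 ± 0.501 in KO and -7.28 ± 2.34 in Control (log2, SD, n = 4 each, exact p = 0.0286, adjusted p = 0.0476), beside the muscle values given above. Each adjusted p of 0.0476 rests on these pairs reaching the smallest possible p together, the Cox6a2 pair among them. They are therefore not separate results.

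The abundant pairs gave no difference past the threshold. Cox7a1 to Cox7a2 had log2 ratios of 0.02, 0.20, 0.27 and 0.09 in KO, against -0.04, 0.07, 0.38 and 0.30 in Control, a difference of -0.04 (exact p = 0.771, adjusted p = 0.771). Per length, Cox7a1 made up 69.7% ± 1.66 of the pair in KO and 70.2% ± 2.84 in Control (SD, n = 4 each). Cox8b to Cox8a had log2 ratios of -0.32, -0.18, -0.12 and -0.27 in KO, against -0.18, -0.11, 0.26 and 0.07 in Control, a difference of -0.23 (exact p = 0.0571, adjusted p = 0.0714). Per length, Cox8b made up 56.4% ± 1.57 of the pair in KO and 60.3% ± 3.28 in Control (SD, n = 4 each), and the groups overlapped. A p that misses the threshold does not show that the balance was the same. Cox7a1 and Cox8b are also muscle forms, and these ratios were not adjusted for the muscle markers. The balance within brown fat cells was therefore not tested.

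**Figure D4:**
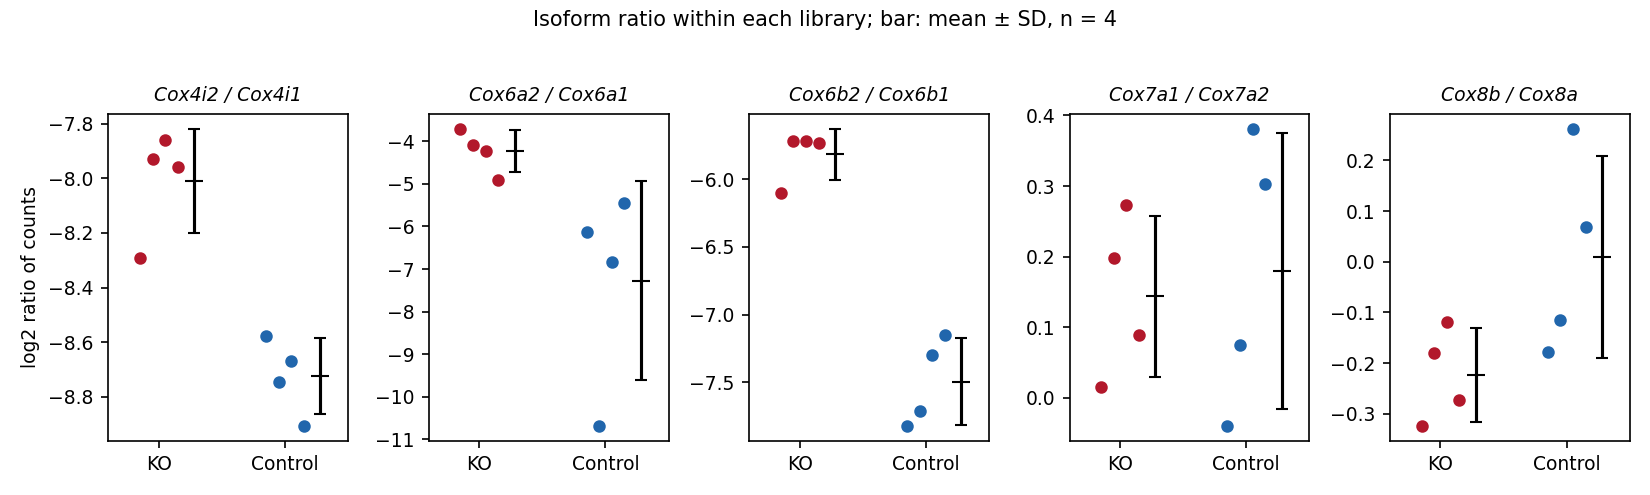
Log2 ratio of counts of each tissue form to its ubiquitous partner, 1 point per library, KO left and Control right, with the mean and SD (n = 4) beside the points. The groups are apart for Cox4i2 to Cox4i1, Cox6a2 to Cox6a1 and Cox6b2 to Cox6b1, and overlap for Cox7a1 to Cox7a2 and Cox8b to Cox8a.

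Assembly genes fell in the same direction as the subunits. Of 12 tested, 9 were called lower and 0 higher, with a median log2 fold change of -0.53. A difference from the median of the ubiquitous subunits was not tested. The synthesis of heme a, the form of heme used by this enzyme, runs through Cox10, which adds a farnesyl group, and Cox15, which oxidises the product. Cox10 (chromosome 11, 63962627 to 64079472, minus strand, mm10) had 65.8, 61.9, 74.4 and 60.5 CPM in KO libraries, against 88.3, 104, 111 and 108 CPM in Control libraries. It was lower in every KO library and fell by 0.65 in log2 units, with an SE of 0.0949 and an edgeR adjusted p of 0.0014. Cox15 averaged 68.8 ± 5.14 CPM in KO and 99.6 ± 6.60 CPM in Control (SD, n = 4 each), fell by 0.53 and did not overlap between groups (edgeR adjusted p = 0.00127).

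The copper genes held the largest fall of all members. Cox17, the chaperone that hands copper to the proteins loading the core subunits (chromosome 16, 38346999 to 38352763, plus strand, mm10), had 148, 132, 135 and 128 CPM in KO libraries, against 208, 238, 204 and 228 CPM in Control libraries. The groups lay well apart, and Cox17 fell by 0.69 in log2 units, with an SE of 0.0773 and an edgeR adjusted p of 0.000476. Cox11, which carries copper to the site of the COX1 subunit, had 24.1, 25.4, 27.1 and 26.8 CPM in KO, against 36.6, 33.9, 40.0 and 45.3 CPM in Control (log2 fold change -0.59, edgeR adjusted p = 0.00219). In the annotation 48.7% of its exon bases lie opposite Tom1l1, which had a log2 fold change of -0.03 and no call.

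Sco1, which loads copper into the COX2 subunit, had 22.4, 24.5, 22.0 and 22.6 CPM in KO libraries, against 36.4, 32.9, 33.7 and 29.6 CPM in Control libraries. Its log2 value fell by 0.54 with no overlap (SE 0.0813, edgeR adjusted p = 0.00158). Cox19, a copper-binding protein of the intermembrane space, averaged 48.8 ± 2.68 CPM in KO and 70.4 ± 8.29 CPM in Control (SD, n = 4 each) and fell by 0.53 (edgeR adjusted p = 0.00283). Cox16, a further factor of COX2 assembly, had 23.6, 23.1, 23.3 and 21.8 CPM in KO, against 29.6, 32.4, 35.4 and 41.1 CPM in Control, and fell by 0.59 (edgeR adjusted p = 0.00284). Of its exon bases 76.6% are shared with the gene model Gm20498 on the same strand, so its counts are uncertain. Sco2, the partner of Sco1, shares 69.5% of its exon bases with Tymp on the same strand. It averaged 32.0 ± 2.17 CPM in KO and 39.4 ± 9.31 CPM in Control (log2 fold change -0.30, edgeR adjusted p = 0.14), with overlapping groups and no call.

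**Figure D5:**
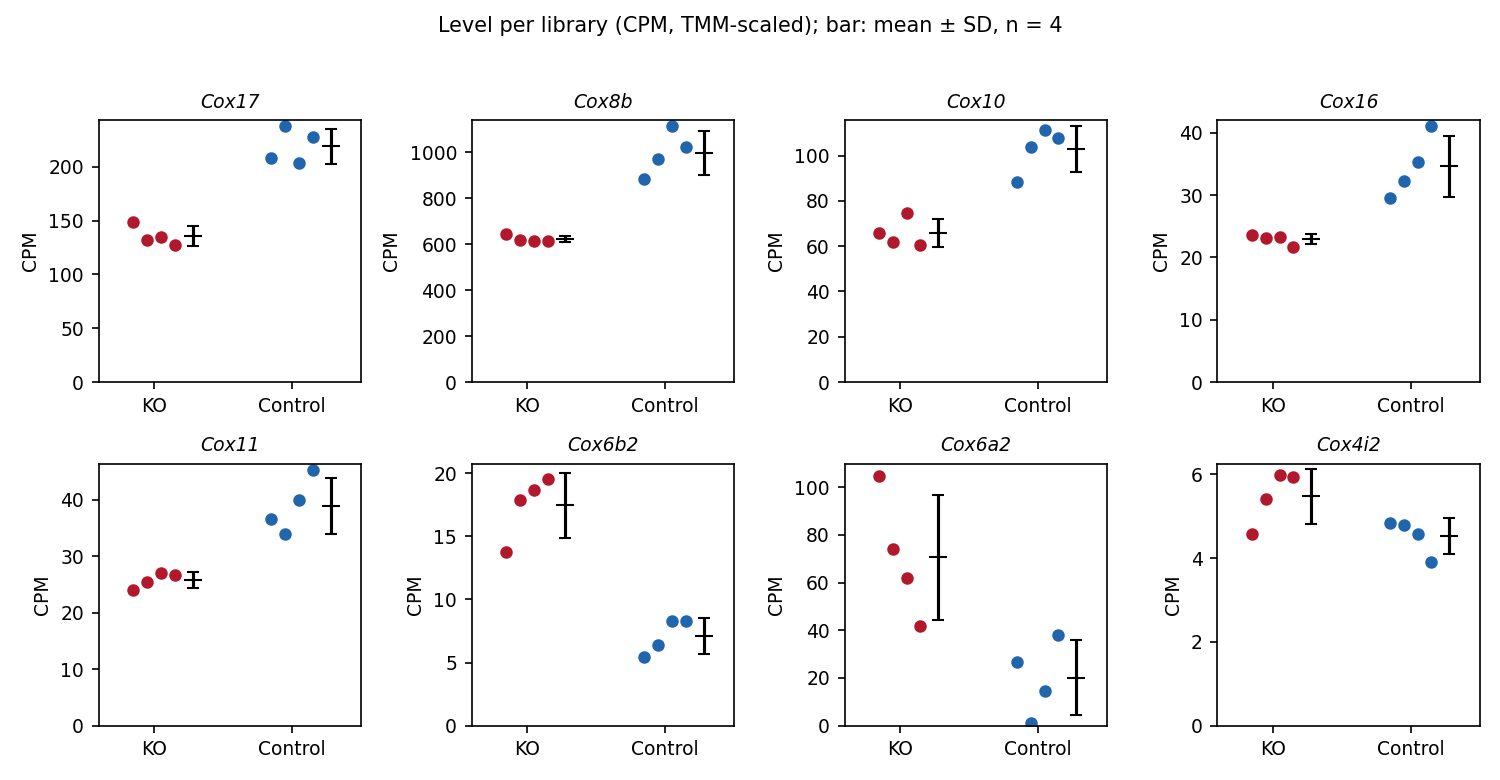
Level (CPM) of 8 members in each library, KO left and Control right, with the mean and SD (n = 4) beside the points. Cox17, Cox8b, Cox10, Cox16 and Cox11 are lower in every KO library, Cox6b2 and Cox6a2 are higher in every KO library, and Cox4i2 overlaps between groups.

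Genes for the maturation of the core subunits had a median log2 fold change of -0.30. Of 4 tested, 2 were called lower, 0 higher and 2 were not called. Cox14, which holds newly made COX1, averaged 84.3 ± 5.01 CPM in KO and 107 ± 9.09 CPM in Control (SD, n = 4 each), and fell by 0.34 (edgeR adjusted p = 0.00995). Cox20, a chaperone of COX2, averaged 27.6 ± 1.76 CPM in KO and 33.8 ± 1.45 CPM in Control and fell by 0.29 (edgeR adjusted p = 0.0133). Neither was called with library sizes alone, where Cox14 was at -0.14 and Cox20 at -0.09 (edgeR adjusted p = 0.194 and 0.301). With the muscle covariate neither was called, Cox14 being at -0.24 with an SE of 0.0961 and Cox20 at -0.31 with an SE of 0.102 (edgeR adjusted p = 0.105 and 0.0577). Cox20 was also not called with upper quartile factors (edgeR adjusted p = 0.0743). Surf1, an assembly factor whose loss in humans causes Leigh syndrome, was at 51.7, 53.6, 58.3 and 59.6 CPM in KO and 63.9, 65.4, 62.8 and 62.4 CPM in Control. Its groups did not overlap, yet its log2 fold change of -0.19 was not called (edgeR adjusted p = 0.052). It was called lower by DESeq2 (DESeq2 adjusted p = 0.032) and limma-voom (limma-voom adjusted p = 0.0496), and was at 0.01 with library sizes alone. Cox18, an insertase for COX2, had overlapping groups and a log2 fold change of -0.31, with an SE of 0.167 (edgeR adjusted p = 0.183). Its counts came from a transcript model that RefSeq lists as noncoding.

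Cycs and Cox7a2l stand beside the enzyme. Cycs, cytochrome c, which brings the electrons, had 27.6, 30.8, 33.3 and 33.9 CPM in KO libraries and 37.4, 32.9, 43.8 and 44.4 CPM in Control libraries. Control 514 lay within the KO values. The log2 fold change was -0.34 (SE 0.113) and its edgeR adjusted p was 0.0454, and this call ended without KO 512 (adjusted p = 0.104), KO 513 (0.101), KO 515 (0.0683), KO 516 (0.0617), Control 511 (0.0529), Control 517 (0.103) or Control 518 (0.128). Cycs was not called either with relative log expression factors (0.0557), upper quartile factors (0.144), library sizes alone (0.391) or limma-voom (0.0522). Cox7a2l is described as joining complex IV to complex III in respiratory supercomplexes, and its role in this strain was not examined. Cox7a2l averaged 178 ± 9.29 CPM in KO and 235 ± 31.1 CPM in Control (SD, n = 4 each), without overlap. It fell by 0.40 in log2 units (edgeR adjusted p = 0.0133) and has 1 near-identical gene elsewhere. It was not called with library sizes alone (-0.21, edgeR adjusted p = 0.159) or with the muscle covariate (-0.36, SE 0.131 beside 0.0988 without it, edgeR adjusted p = 0.0795).

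Promoter windows are shown for the called members with the largest changes that had one, and for Cox8a as the partner of Cox8b, chosen after the values were seen. A window runs from 250 bases before to 50 bases after the start site, from RefSeq on GRCm38.p6, and 24 of the 31 members had one. Capitals mark matches, on either strand, to CCGGAAG (the core bound by ETS factors such as GABPA) and AAGATGGC (YY1). The windows of Cox8b at chr7:140900397-140900696 and Cox6b2 at chr7:4753045-4753344, tissue forms on the minus strand, held no match to any motif searched. Those of Cox10 at chr11:64079423-64079722 and Cox8a at chr19:7217567-7217866, also on the minus strand, held 2 matches each.
Cox8b: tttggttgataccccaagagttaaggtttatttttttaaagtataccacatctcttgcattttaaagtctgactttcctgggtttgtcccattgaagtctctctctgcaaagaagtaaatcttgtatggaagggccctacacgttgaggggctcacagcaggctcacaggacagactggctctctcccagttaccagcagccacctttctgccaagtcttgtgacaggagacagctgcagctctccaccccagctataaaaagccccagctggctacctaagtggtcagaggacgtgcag
Cox6b2: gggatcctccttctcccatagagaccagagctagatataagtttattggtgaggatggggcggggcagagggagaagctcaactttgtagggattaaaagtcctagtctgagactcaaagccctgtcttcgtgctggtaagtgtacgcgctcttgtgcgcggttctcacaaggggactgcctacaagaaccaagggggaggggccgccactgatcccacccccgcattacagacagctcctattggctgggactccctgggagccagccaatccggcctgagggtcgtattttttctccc
Cox10: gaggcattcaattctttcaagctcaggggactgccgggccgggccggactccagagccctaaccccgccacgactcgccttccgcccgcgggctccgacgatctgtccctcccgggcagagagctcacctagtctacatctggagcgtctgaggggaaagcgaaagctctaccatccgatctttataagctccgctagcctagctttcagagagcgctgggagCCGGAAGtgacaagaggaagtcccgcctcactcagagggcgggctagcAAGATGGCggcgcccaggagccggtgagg
Cox8a: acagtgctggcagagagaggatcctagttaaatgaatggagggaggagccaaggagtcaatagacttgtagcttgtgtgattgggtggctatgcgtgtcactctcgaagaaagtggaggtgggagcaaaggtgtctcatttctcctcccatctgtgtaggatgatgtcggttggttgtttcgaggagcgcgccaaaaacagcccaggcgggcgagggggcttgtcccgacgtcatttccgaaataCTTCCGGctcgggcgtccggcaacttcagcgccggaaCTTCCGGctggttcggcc

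The core CCGGAAG was found in 10 of the 24 member windows (41.7%), beside 17.4% of 10576 windows of tested genes and 8.86% of all 32851 windows. The 10 genes were Cox6a1, Cox6b1 and Cox8a among the ubiquitous subunits and Cox10, Cox14, Cox15, Cox16, Cox20, Sco1 and Surf1 among the assembly genes. AAGATGGC was found in 2 member windows (Cox10 and Cox20), 8.33% beside 4.43% of tested genes. The NRF1 core GCGCNTGCG was also found in 2 (Cox6a1 and Cycs), beside 13.4% of tested genes. The motif TNAAGGTCA of estrogen-related receptors was in 0 of the 24, beside 0.681% of tested genes. The Cox8b window was 48.3% G and C with 2 CpG sites, that of Cox8a 56.0% with 19 and that of Cox10 63.0% with 23, while the median window of tested genes was at 61.0% with 21. These are letter matches in 1 window per gene, not binding sites.

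Other genes of this enzyme went the same way. Of 30 further genes for its assembly, its messenger RNAs and its electron and copper supply, 29 were tested, 19 were called lower and 0 higher, with a median log2 fold change of -0.41. With library sizes alone 10 were lower and 1 was higher. The 4 with the smallest p were called lower without overlap. Slirp, which stabilises mitochondrial messenger RNAs together with Lrpprc, averaged 28.5 ± 0.617 CPM in KO and 41.9 ± 1.66 CPM in Control (SD, n = 4 each), and fell by 0.55 in log2 units (edgeR adjusted p = 0.000428). Coa3, an early partner of COX1, averaged 50.9 ± 0.581 CPM in KO and 72.8 ± 3.22 CPM in Control and fell by 0.52. Higd1a, a hypoxia-inducible protein of the inner membrane, averaged 20.3 ± 1.08 CPM in KO and 33.8 ± 2.89 CPM in Control and fell by 0.74. Tmem177, a factor for COX2, averaged 18.6 ± 0.706 CPM in KO and 27.7 ± 1.47 CPM in Control and fell by 0.58. Ndufa4l2, a hypoxia-induced relative of the subunit Ndufa4, had the highest log2 fold change in this list, 0.34, without a call (edgeR adjusted p = 0.0534), and was named after its value was seen.

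With TMM factors the fall was of the same order in the neighbouring complexes, and differences between the complexes were not tested. Their counts were not repeated with library sizes alone, which moved the median of all genes by 0.199. Of 37 genes with Nduf symbols, nearly all of them subunits of complex I, 31 were called lower and 0 higher (median log2 fold change -0.33). The 37 include Ndufa4 and Ndufa4l2, which are also among the further genes of cytochrome c oxidase counted above. Of 9 genes of complex III 9 were lower and 0 higher (median -0.44). Of 17 genes with Atp5 symbols, taken for ATP synthase by symbol alone, 8 were lower and 1 was higher (median -0.31). In the authors' deposited table, 20 of the 31 members had an FDR under 0.05 and a lower value in KO, and 2, Cox6b2 and Cox6a2, had an FDR under 0.05 and a higher value. Among all 30521 rows there, 2487 were lower and 2835 higher at that FDR.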

How the data were processed

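RNA of brown adipose tissue was sequenced in 4 KO and 4 Control libraries. Reads were aligned to mm10 by TopHat2 version 2, per the submitters' processing notes, where HOMER and edgeR are also listed. The authors' estimated counts came from HOMER, which summed reads over exons of RefSeq gene models without adjustment or strand, per the file headers. They come in steps of 0.5, 36.9% are not whole, and they were rounded before testing. Lengths in bases come from the same table. The authors' deposited table also holds scaled counts (a signal with equal totals), fold (ratio), log2 fold change and CPM on the log2 scale, p-value and FDR, per the file headers.

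The 829 of 30521 rows naming no gene (0.0608% to 0.0824% of counts) were left out, and the row with the highest total stood for each symbol. Genes passing filterByExpr (minimum count 10) were tested with edgeR 4.0.16 (R 4.3.3), two-sided, without covariates, Benjamini-Hochberg adjusted, threshold 0.05. SE is the log2 fold change divided by the square root of F. Isoform ratios used unrounded counts. DESeq2 1.42.0 and limma 3.58.1 (voom) were alternatives. Intervals and limits of a count of 0 cover counting error only. Overlaps and near-identical genes were read from GENCODE M21 (GRCm38). No pair of replicates agreed within sampling noise (lowest chi-square per degree of freedom 12.4 in KO and 50.2 in Control). The labels name no batch.

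Members follow a fixed symbol rule. Members and lists were chosen with earlier results of these data known. Values per library are given for the 6 largest falls and the rise among called members without overlap, the isoform pairs and Cycs. Of the other genes the 4 with the smallest p are given as mean ± SD.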

Additional observations from a re-analysis of the deposited data

Results flagged for a closer look

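A library stood apart within its group of 4 by Dixon's test at its 95% critical value in 5 of the 70 groups examined. Chance flags about 1 in 20 groups. Control 514 was highest for Cox14 at 120.1 CPM, with the other Control libraries at 101 to 104 CPM, and for Cox4i1 at 2046 CPM, with the others at 1838 to 1872 CPM. KO 512 was highest for Cox8b at 645 CPM, with the other KO libraries at 613 to 617 CPM. KO 515 was highest for Sco2 at 35.3 CPM, with the others at 30.7 to 31.2 CPM. The log2 ratio of Cox6b2 to Cox6b1 was lowest in KO 512 at -6.10, with the other KO libraries at -5.73 to -5.71.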

How the results depend on the processing

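No paired analysis was possible because the groups share no replicate number. In the 16 alternatives, 11 members were called lower in each and Cox6b2 higher in each, and 3 (Cox5b, Cox18 and Sco2) were called in 0. Main counts were 22 members lower and 1 higher, 19 and 0 of the other enzyme genes, and 2682 and 2189 of all genes. Library sizes alone gave 12 and 3 members, 10 and 1 other genes, and 930 and 4077 of all genes, with Surf1 at a log2 fold change of 0.00960. Upper quartile factors, which moved the median of all genes by 0.103, gave 1625 genes lower and 1 other gene higher. The muscle covariate gave 14 members and 1822 of all genes lower, 1429 of all genes higher and 1 other gene higher. By limma-voom 2 members and 1 other gene were higher, and DESeq2 and relative log expression factors each had 1 other gene higher. For these counts the causes were not tested.

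Leaving out 1 library at a time gave 21 to 22 members lower and 1 to 2 higher, 15 to 19 other genes lower and 0 to 1 higher, and 1900 to 2655 genes lower and 1527 to 2260 higher. The Kdm1a log2 fold change stayed between -1.47 and -1.39. The log2 ratio difference was 0.65 to 0.81 for Cox4i2 to Cox4i1, 1.91 to 3.66 for Cox6a2 to Cox6a1, 1.57 to 1.80 for Cox6b2 to Cox6b1, -0.11 to 0.03 for Cox7a1 to Cox7a2 and -0.30 to -0.15 for Cox8b to Cox8a. No test was run on these ratios without a library. The rarest tested members, Cox4i2 and Cox6b2, rest on the fewest counts.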
